A study of Homo sapiens with 10 samples.

Results

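The 77 genes described here encode the proteins of the cytosolic ribosome, 46 of the large subunit and 31 of the small subunit, and were taken from 57820 gene entries by symbol: protein-coding genes named RPL or RPS with a number and an optional A or X, together with RPLP0, RPLP1, RPLP2 and RPSA. Pseudogenes, mitochondrial ribosomal proteins, S6 kinases and paralogs with an L suffix were left out. Polyadenylated RNA was sequenced in 10 libraries of D425 and HD-MB03, established cell lines of Group 3 medulloblastoma, a cerebellar tumour of childhood. In D425, 3 libraries labelled shCRX were compared with 3 controls, namely 2 of parental cells and 1 of cells with the empty vector. In HD-MB03, 2 libraries labelled shCRX were compared with 2 controls, 1 parental and 1 with the empty vector. The hairpins target CRX, a homeobox gene that drives the photoreceptor programme, and were expressed from the lentiviral vector Tet-pLKO-puro in polyclonal populations. A treatment of 4 µg/ml doxycycline over 72 h is listed for all 10 libraries. The study used 2 hairpins, and which of them a given library carries is not labelled.

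Each cytosolic ribosome holds 1 copy of nearly every one of these proteins around its ribosomal RNA, so cells make them in matched amounts. Most of their mRNAs begin with a 5′ terminal oligopyrimidine tract, a C followed by a run of C and T, through which mTOR and LARP1 control their translation and stability. MYC, the oncogene that marks Group 3 tumours, drives the synthesis of ribosome components. A change in such an mRNA's amount is therefore not a change in its translation, which was not measured here.

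A start with a C and at least 4 further pyrimidines was present in 46 of the 62 members for which a RefSeq start was at hand (74.2%), against 1404 of 27305 genes of all kinds (5.14%). The motif was searched on the strand that reads like the mRNA, at the first base of each annotated start, and a match is a description of these letters alone. Among the members that have the tract, it ran for 5 to 19 pyrimidines with a median of 8. The starts below belong to some of the members called in the comparisons between libraries, with 20 bases on each side of the first transcribed base (RefSeq, GRCh38.p14). RPL8 and RPL10, also called, are among those not shown, and the annotated starts of RPL10 do not all hold the tract. Capitals mark the unbroken run of pyrimidines from the first transcribed base onward.
RPS12, chr6:132814549-132814588, plus strand: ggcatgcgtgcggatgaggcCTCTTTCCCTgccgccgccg
RPL26, chr17:8383174-8383213, minus strand: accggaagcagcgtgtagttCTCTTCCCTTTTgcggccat
RPL34, chr4:108620556-108620595, plus strand: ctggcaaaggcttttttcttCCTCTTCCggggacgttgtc
RPS9, chr19:54200838-54200877, plus strand: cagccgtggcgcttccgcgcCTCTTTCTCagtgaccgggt
RPS16, chr19:39435930-39435969, minus strand: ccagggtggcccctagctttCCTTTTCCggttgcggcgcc
RPS14, chr5:150449720-150449759, minus strand: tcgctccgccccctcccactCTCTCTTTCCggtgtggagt
RPL27, chr17:42998399-42998438, plus strand: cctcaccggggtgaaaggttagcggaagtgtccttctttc
RPS15, chr19:1438376-1438415, plus strand: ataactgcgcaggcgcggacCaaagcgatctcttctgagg
RPS3, chr11:75399498-75399537, plus strand: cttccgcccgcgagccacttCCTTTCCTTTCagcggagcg
RPS25, chr11:119018324-119018363, minus strand: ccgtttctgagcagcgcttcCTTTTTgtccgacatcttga
RPS24, chr10:78033843-78033882, plus strand: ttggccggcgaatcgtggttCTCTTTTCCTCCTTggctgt
RPS26, chr12:56041898-56041937, plus strand: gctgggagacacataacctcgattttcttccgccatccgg
The annotated starts of RPL27 and RPS26 do not open with a pyrimidine, and that of RPS15 opens with a single C. The other 9 starts shown hold the tract. RPL34 has a second annotated start, which lacks it, and a gene was counted as having the tract if any of its starts did.

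Between 1.96 and 18.06 M reads were counted in genes per library, and the 2 HD-MB03 controls were the shallowest. In these 2 libraries 30.9% and 26.4% of the reads were not aligned, against 4.54% to 7.99% in the other 8. The library numbers of the deposited files form a low set, 20 to 62, with the D425 shCRX libraries and the HD-MB03 controls, and a high set, 110 to 136, with the D425 controls and the HD-MB03 libraries labelled shCRX. Within a line the set and the arm cannot be told apart. CRX had 20.3, 20.9 and 25.3 CPM (counts per 1000000 of the TMM-scaled library) in D425 shCRX replicates 1 to 3, against 47.4, 29.6 and 64.8 CPM in the D425 controls (log2 fold change -1.10 ± 0.26, SE, edgeR adjusted p = 0.0436). It had 27.7 and 23.5 CPM in the HD-MB03 libraries labelled shCRX, against 12.5 and 12.3 CPM in their controls (1.04 ± 0.36, adjusted p = 0.174). CRX was therefore lower under the label in D425, and in HD-MB03 its values lay above both controls, against the label. Of 6 marker genes of Group 3 cells, 5 or 6 had counts in each group, and NPR3 was the one near 0. The summed level of 4 fibroblast markers was 4 to 14 CPM in any library, and that of 2 markers of endothelium and blood was at most 10.7 CPM.

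The ribosomal protein genes took 6.38% to 9.38% of all counted reads. Their share was 8.24%, 6.38% and 9.38% in D425 shCRX replicates 1 to 3, against 8.77% and 7.85% in the parental D425 libraries and 8.65% in the D425 vector library. In HD-MB03 it was 8.21% and 7.51% in the libraries labelled shCRX, against 8.87% in the parental and 9.36% in the vector library. The D425 shCRX values enclosed all 3 of their controls, whereas both HD-MB03 libraries labelled shCRX lay below both of theirs. Counting error was at most 0.0408 points per library (half-width of the exact 95% binomial interval), far under the spread between libraries. In bulk RNA, fewer cells of a type and less RNA per cell cannot be told apart. The difference between arms was -0.423 percentage points in D425 (two-sided exact permutation p = 0.8, where 3 against 3 libraries cannot go below 0.1) and -1.25 in HD-MB03 (p = 0.333, the smallest that 2 against 2 libraries allow). Between the lines, the share averaged 8.21% ± 1.03 in D425 (SD, n = 6) and 8.49% ± 0.805 in HD-MB03 (SD, n = 4), a difference of -0.277 points, less than the spread between libraries of either line (two-sided exact permutation p = 0.714). With all reads as denominator that difference was 0.831 points in the other direction (6.33% in D425 and 5.50% in HD-MB03, exact permutation p = 0.143). It was -1.12 points within the low and 0.562 within the high library numbers (exact permutation p = 0.6 and 0.4, each from 3 against 2 libraries). Without D425 shCRX replicate 2 it was 0.0880, and without the HD-MB03 vector library 0.0145.

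**Figure D1:**
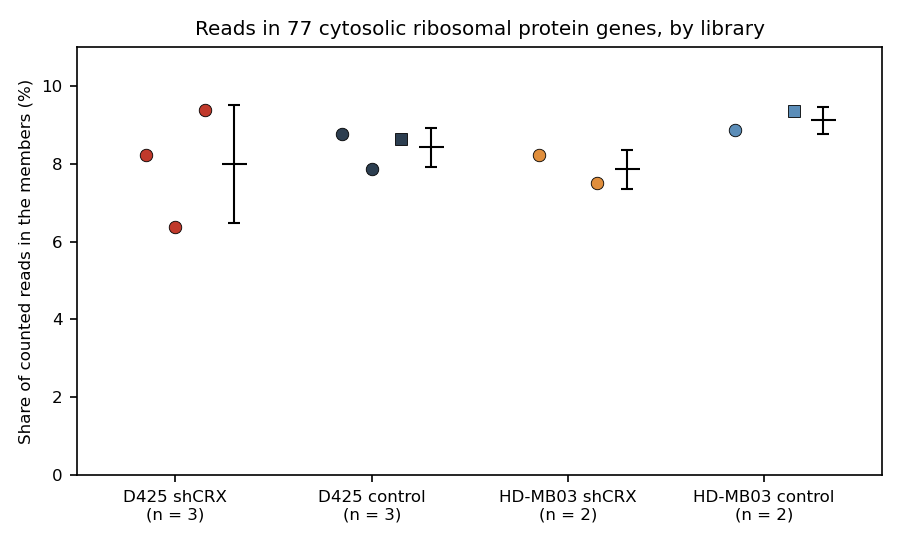
Share of counted reads in the 77 ribosomal protein genes (percent, axis from 0) in each library of the 4 groups; circles are parental or shCRX libraries, squares vector libraries, and the bar beside them the mean ± SD. The D425 shCRX libraries span 6.38% to 9.38%, and the other 7 libraries lie between 7.51% and 9.36%.

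The balance of reads between the subunits was narrower than the share itself. Reads of large-subunit genes per read of small-subunit genes were 1.63, 1.62 and 1.68 in D425 shCRX replicates 1 to 3, against 1.71, 1.80 and 1.75 in the D425 controls. They were 1.65 and 1.66 in the HD-MB03 libraries labelled shCRX, against 1.78 and 1.83 in the HD-MB03 controls. The arms did not overlap in either line. This ratio was chosen after its values were seen, so no test is given. With RPL8 left out it was 1.55, 1.53 and 1.60 in D425 shCRX libraries, against 1.64, 1.72 and 1.67 in controls. In HD-MB03 it was then 1.62 in each of the libraries labelled shCRX, against 1.65 and 1.72 in controls, so the arms still did not overlap. The ratio weights genes by their reads, and the median log2 fold changes of the 2 subunits lay close together, at -0.19 for 46 large-subunit and -0.17 for 30 small-subunit genes in the mean of the lines. They lay further apart in D425, at -0.24 for the large and -0.11 for the small subunit.

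Over all 10 libraries 73 members had a mean level of at least 50 CPM, from 83.5 (RPL26) to 3807 CPM (RPL4), with a median of 929. Divided by the median length of each gene's protein-coding transcripts, the levels of these 73 ran from 148 to 3890 CPM per kb with a median of 1388, and the 90th percentile was 4.66 times the 10th. The highest were RPS18 (3890.1 CPM per kb), RPLP0 (3643), RPL4 (3129.6), RPS2 (3109) and RPS24 (3037). This order pools 6 D425 and 4 HD-MB03 libraries, and it differed by line: by CPM per kb among the members, RPS24 ranked 12 in D425 and 2 in HD-MB03, RPS3 ranked 3 and 34, and RPL10 ranked 4 and 28. The lowest of the 73 were RPL26 (148), RPS26 (182) and RPS28 (282). The lengths used were 1140 nt for RPS26 and 1326 nt for RPS28, against a median of 681.5 nt for the members. Before division RPS28 had a mean of 374 CPM, above for instance RPS29 (274), RPL23A (299) and RPS15A (300), so its place depends on the length used. Reads that also match a pseudogene may have been left out of the counting, so the low end of this order is uncertain. Entries named as pseudogenes of a member, 1576 in number, held 2.47 to 2.61 reads per 100 member reads in D425, 3.01 and 2.89 in the HD-MB03 libraries labelled shCRX, and 4.48 and 4.23 in the HD-MB03 controls.

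The comparisons below were tested in 76 members, these 73 and 3 that averaged under 50 CPM, with mean levels of 3.40 CPM for RPS10, 11.04 CPM for RPL36A and 11.3 CPM for RPL17. Their proteins are part of every ribosome, and what share of their reads was assigned to them is not known. Across the 4 groups, entries named as pseudogenes of RPL17 held 784 to 11736 reads per 100 RPL17 reads. For RPL36A these were 390 to 978 per 100, and for RPS10 29.5 to 229. The fold changes of these 3 genes are therefore uncertain. The stalk, which recruits translation factors to the large subunit, is built of RPLP0 and of pairs of RPLP1 and RPLP2. RPLP0 had 3592 CPM per kb in D425 and 3721 in HD-MB03, RPLP1 had 2908 and 3125, and RPLP2 had 1112 and 1010.0. RPL5 and RPL11, which join the 5S ribosomal RNA and can bind MDM2, had 1928 and 1252 CPM per kb in D425 and 1963 and 1360.2 in HD-MB03. None of these 5 genes passed in any comparison below.

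The question put to each member was whether its level differed between the libraries labelled shCRX and the controls of a line. A gene was called at a Benjamini-Hochberg adjusted p under 0.05 over all 16006 genes tested with edgeR's quasi-likelihood test (two-sided). Per-library values are given with replicates in number order and, for controls, parental libraries before the vector library.

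In D425 no ribosomal protein gene was called (0 of 76), where 2.97% of all genes were. At an unadjusted p under 0.05, 14 of the 76 members passed, 1 higher and 13 lower, where 17.3% of all genes did. DESeq2's Wald test called 4 members and limma-voom 2, and the share of all genes under these 2 tests is not given here. The fold changes were small and mostly negative: 62 of 76 were below 0, with a median of -0.17 on the log2 scale against 0.02 over all genes tested, and they ran from -0.68 to 0.45. The smallest adjusted p was that of RPL38, a large-subunit protein known in mice for its role in the translation of Hox mRNAs. It had 408, 355 and 484 CPM in shCRX libraries, against 707, 662 and 622 CPM in controls (-0.68 ± 0.17, SE, edgeR adjusted p = 0.0544). Every shCRX library lay below every control, and the gene was not called.

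Other members at the lower end in D425 were RPL23, RPL41 and RPL7. RPL23, which sits at the interface of the subunits, had 1367, 981 and 1481 CPM in shCRX libraries, against 1928, 1970.3 and 2031 CPM in controls (-0.63 ± 0.20, edgeR adjusted p = 0.122). RPL41, the shortest ribosomal protein, had 236, 240.1 and 272 CPM, against 498, 331 and 317 CPM in controls (-0.62 ± 0.20, adjusted p = 0.119). The arms did not overlap for either gene. RPL7 had 672, 591 and 932 CPM, against 1162, 1000.4 and 1132 CPM (-0.59 ± 0.21, adjusted p = 0.162). At the upper end stood RPL17 (0.45), RPS15 (0.43), RPS14 (0.23) and RPL37A (0.23). The arms did not overlap for 20 members, against 23.0% of all genes tested. RPS15 was the 1 member separated upward and 19 were separated downward, where each direction held 11.5% of all genes.

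Values near 0 in D425 were those of RPLP1 (0.01), RPL10 (0.02), RPS19 (-0.00), RPSA (0.04), RPLP0 (-0.05) and RPL11 (-0.07). RPS6, the substrate of S6 kinase, had 1338, 1043 and 1644 CPM in shCRX libraries, against 1869.9, 1677 and 1812 CPM in controls (-0.41 ± 0.20, edgeR adjusted p = 0.324). The D425 shCRX libraries of this gene lay below its controls, by less than the test's threshold. Scaled by library totals, the median gene stood 0.13 higher in this comparison and the median of the members moved to -0.04, so the prevailing sign of the family rests on the scaling in part.

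In HD-MB03 9 of 76 members were called (11.8%), 3 higher and 6 lower, where 1.51% of all genes were called, 0.262% higher and 1.24% lower. RPS12, RPL26 and RPL34 were higher in the libraries labelled shCRX, while RPL8, RPS9, RPL27, RPS16, RPS15 and RPS14 were lower. The fold changes spread around a median of -0.11 (0.10 over all genes), from -2.02 to 1.36, and 47 of the 76 were below 0. The 2 arms did not overlap for 54 members, against 52.3% of all genes tested. Of these 22 were higher, against 30.5% of all genes, and 32 were lower, against 21.8%.

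The largest difference was that of RPL8, which lies close to the peptidyl transferase centre of the large subunit. It had 980.4 and 1095 CPM in the libraries labelled shCRX, against 4531 and 3862 CPM in controls (-2.02 ± 0.21, SE, edgeR adjusted p = 0.00129). RPS9, a protein of the mRNA entry site of the small subunit, had 895 and 838 CPM, against 2904 and 2481 CPM in controls (-1.64 ± 0.24, adjusted p = 0.00752). In both genes each control held more than every library labelled shCRX, and the libraries of an arm lay close together. RPL27 had 615 and 563 CPM, against 1616 and 1378 CPM in controls (-1.35 ± 0.26, adjusted p = 0.0238). RPS16, whose tail reaches the tRNA in the P site, had 899 and 838 CPM, against 2309.8 and 2071 CPM (-1.33 ± 0.21, adjusted p = 0.0108). RPS15, a protein of the head of the small subunit, had 252 and 277 CPM, against 725 and 489 CPM (-1.20 ± 0.24, adjusted p = 0.0322). The controls of RPS15 differed from each other more than those of RPL27 and RPS16, and still did not overlap with the other arm. RPS14, whose loss is tied to the anaemia of the 5q- syndrome, had 778 and 731 CPM, against 1581 and 1483 CPM (-1.02 ± 0.22, adjusted p = 0.0395).

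Of the higher members, RPS12, a protein of the beak of the small subunit, had 1186 and 1138 CPM in the libraries labelled shCRX, against 412 and 494 CPM in the HD-MB03 controls (1.36 ± 0.23, SE, edgeR adjusted p = 0.0132). RPL26, which lines the region of the exit tunnel, had 104 and 104 CPM, against 43.7 and 48.7 CPM (1.17 ± 0.21, adjusted p = 0.0196). RPL34 had 668 and 494 CPM, against 190.2 and 294 CPM (1.26 ± 0.27, adjusted p = 0.0395). The arms of all 3 genes were separated, and the parental control was lowest in each. RPS3A (1.23), RPS10 (1.11), RPL36A (1.04), RPL37 (0.97) and RPS7 (0.97) had values of like size and were not called. RPS3A had 936 and 735 CPM, against 211 and 503 CPM, so its 2 controls differed 2.38-fold. That made it 1 of 4 tested members, with RPL21, RPL36A and RPS27A, whose parental and vector libraries in HD-MB03 were over 2-fold apart.

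Set beside D425, 2 arrangements recurred among the 9 genes. For RPL8 and RPL27 the D425 libraries lay between the arms of HD-MB03. For RPS12, RPL26, RPL34, RPS16 and RPS14 the HD-MB03 libraries labelled shCRX lay within the D425 range or just above it, and the HD-MB03 controls lay outside it. In RPS16 for instance the D425 shCRX libraries had 825, 719 and 947 CPM, against 860.4, 839 and 922 CPM in D425 controls, close to the 899 and 838 CPM of the HD-MB03 libraries labelled shCRX. In RPL27 the D425 shCRX libraries had 897, 697 and 1113 CPM, against 1241, 948 and 1247 CPM in D425 controls.

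**Figure D2:**
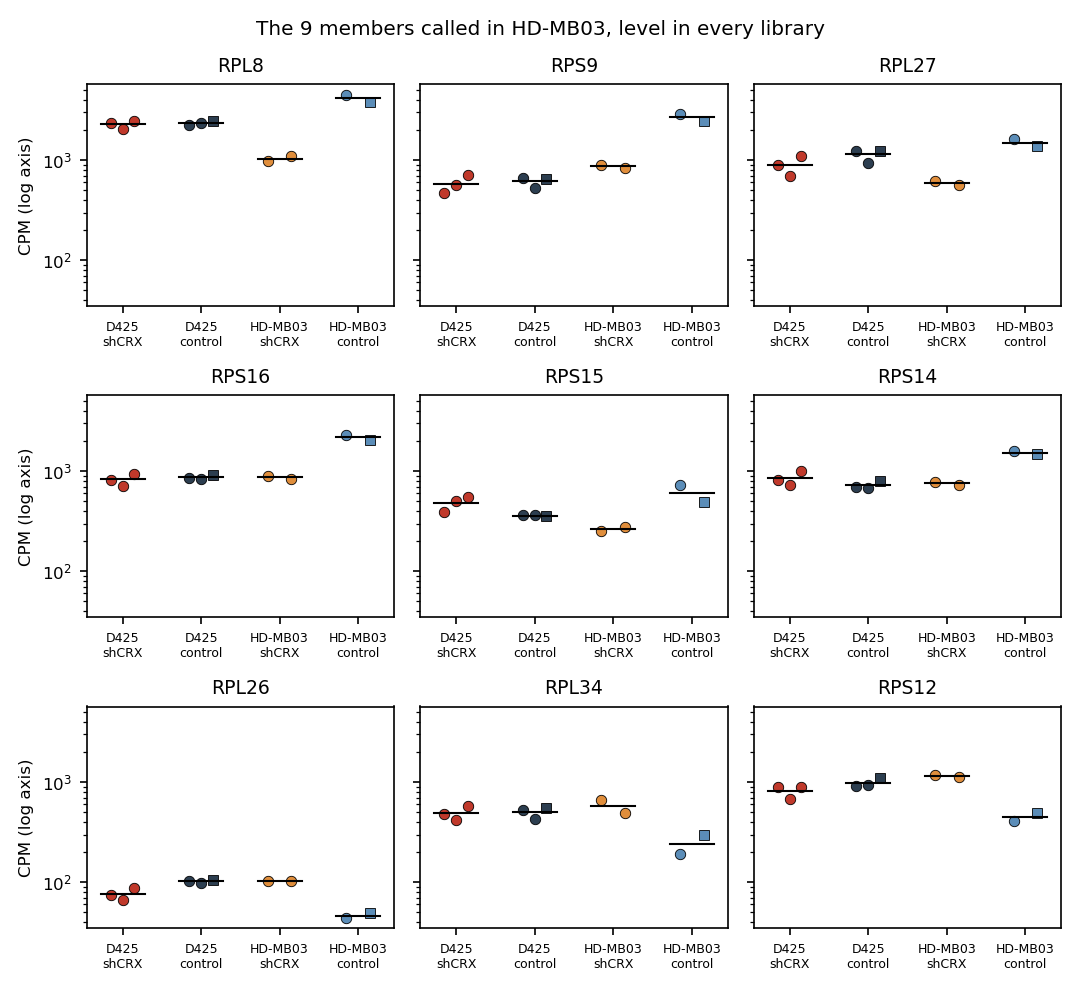
Level in CPM (log axis) of the 9 members called in HD-MB03, in every library of the 4 groups; circles are parental or shCRX libraries, squares vector libraries, and the line the group mean. Except for RPS15, the HD-MB03 controls lie outside the range of all other libraries.

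The direction in HD-MB03 varied with base composition. Transcripts of the 3 members called higher had GC contents of 44.7% to 51.5%, and those of the 6 called lower had 49.8% to 62.2%. Across the 76 members the log2 fold change and the GC content had a Spearman correlation of -0.431, and across 15581 genes of the same libraries -0.355, values that describe genes sharing libraries and not independent replicates. In D425 they were 0.112 over the members and 0.279 over all genes. The HD-MB03 controls are also the libraries with the highest percentage of unaligned reads and the most pseudogene reads per member read. The part of the unaligned reads in the calls was not tested. With the counts of its pseudogenes added to each member, all 9 calls remained. With GC content and length taken into account, 7 of the 9 remained, and RPL34 (1.02, edgeR adjusted p = 0.0565) and RPS15 (-0.77, adjusted p = 0.0913) did not. RPL8 alone passed without the HD-MB03 parental library (adjusted p = 0.0161), without replicate 1 labelled shCRX (0.0244) and without replicate 2 (0.0323), each of which left 1 call. Without D425 parental replicate 1 or the D425 vector library, RPL34, RPS15 and RPS14 missed the threshold (adjusted p between 0.0536 and 0.073), as did RPS14 without the HD-MB03 vector library (0.0632) and RPL34 without D425 shCRX replicate 3 (0.0641). With the vector library alone as control no member was called, and with the parental library alone 5 were.

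**Figure D3:**
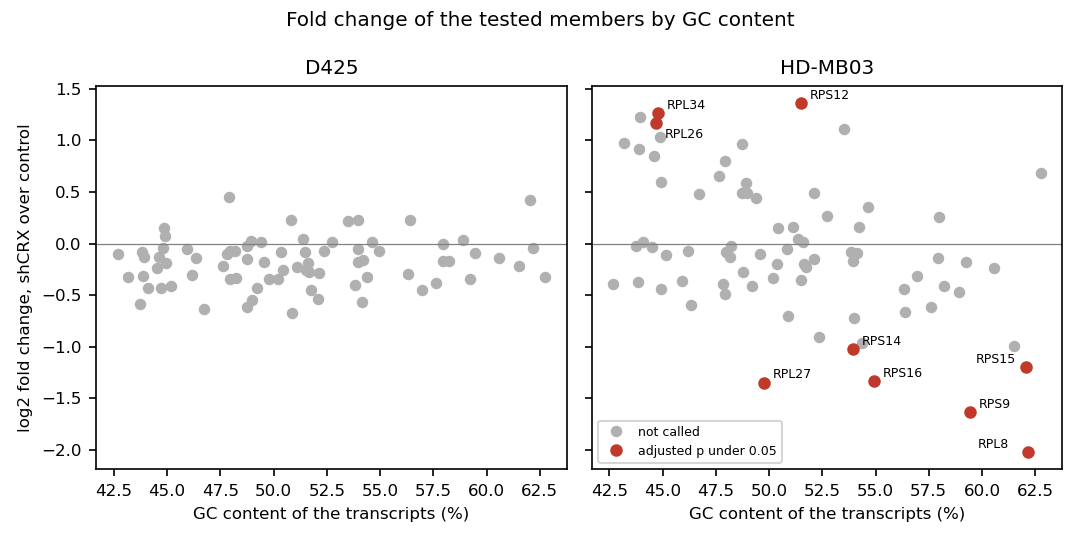
Log2 fold change of each of the 76 tested members, shCRX over control, by the GC content of its transcripts (percent) in D425 and HD-MB03; red points are called. In HD-MB03 the fold changes fall with GC content (Spearman -0.431), and in D425 they lie between -0.68 and 0.45 with no called member.

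The contrasts of labels, shCRX over control, were set against each other as D425 minus HD-MB03. This difference was called for 8 of 76 members (10.5%), against 4.16% of all genes. Of these, 5 were positive (2.67% of all genes) and 3 negative (1.49%). The difference is confounded with the library numbers, as D425 shCRX libraries and HD-MB03 controls share the low set. RPL8 (1.97 ± 0.27, SE, edgeR adjusted p = 0.00211), RPS15 (1.62, adjusted p = 0.0131), RPS9 (1.55), RPS16 (1.26) and RPS14 (1.25) were positive. RPS12 (-1.61 ± 0.29, adjusted p = 0.0101), RPL26 (-1.59, adjusted p = 0.00839) and RPL37 (-1.29, adjusted p = 0.0458) were negative. In D425 RPL8 had 2335, 2067 and 2454 CPM in shCRX libraries, against 2235, 2363 and 2477 CPM in controls, so the arms overlapped. RPS12 had 898, 681 and 894 CPM in D425 shCRX libraries, against 915, 941 and 1094 CPM in controls, a small difference opposite in sign to that in HD-MB03. RPL37, a short zinc-binding protein of the large subunit, had 825, 634 and 818 CPM in D425 shCRX libraries, against 988, 809 and 1042 CPM in D425 controls, so these arms overlapped. In HD-MB03 it had 1019 and 957 CPM in the libraries labelled shCRX, against 391.8 and 615 CPM in controls, so those arms did not. With GC content and length taken into account, 5 of the 8 calls remained, and RPS15 (0.91, edgeR adjusted p = 0.0821), RPS9 (1.13, adjusted p = 0.0775) and RPL37 (-0.89, adjusted p = 0.114) missed the threshold. RPL37 also missed it with DESeq2 size factors (adjusted p = 0.0536), library totals (0.0685) and thinning to equal depth (0.0606). With the vector libraries alone as control none of the 8 was called. Leaving out a library left 2 calls (HD-MB03 parental, or shCRX replicate 1), 4 (HD-MB03 shCRX replicate 2), 5 (D425 parental replicate 1, or D425 shCRX replicate 3) or 15 (HD-MB03 vector).

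**Figure D4:**
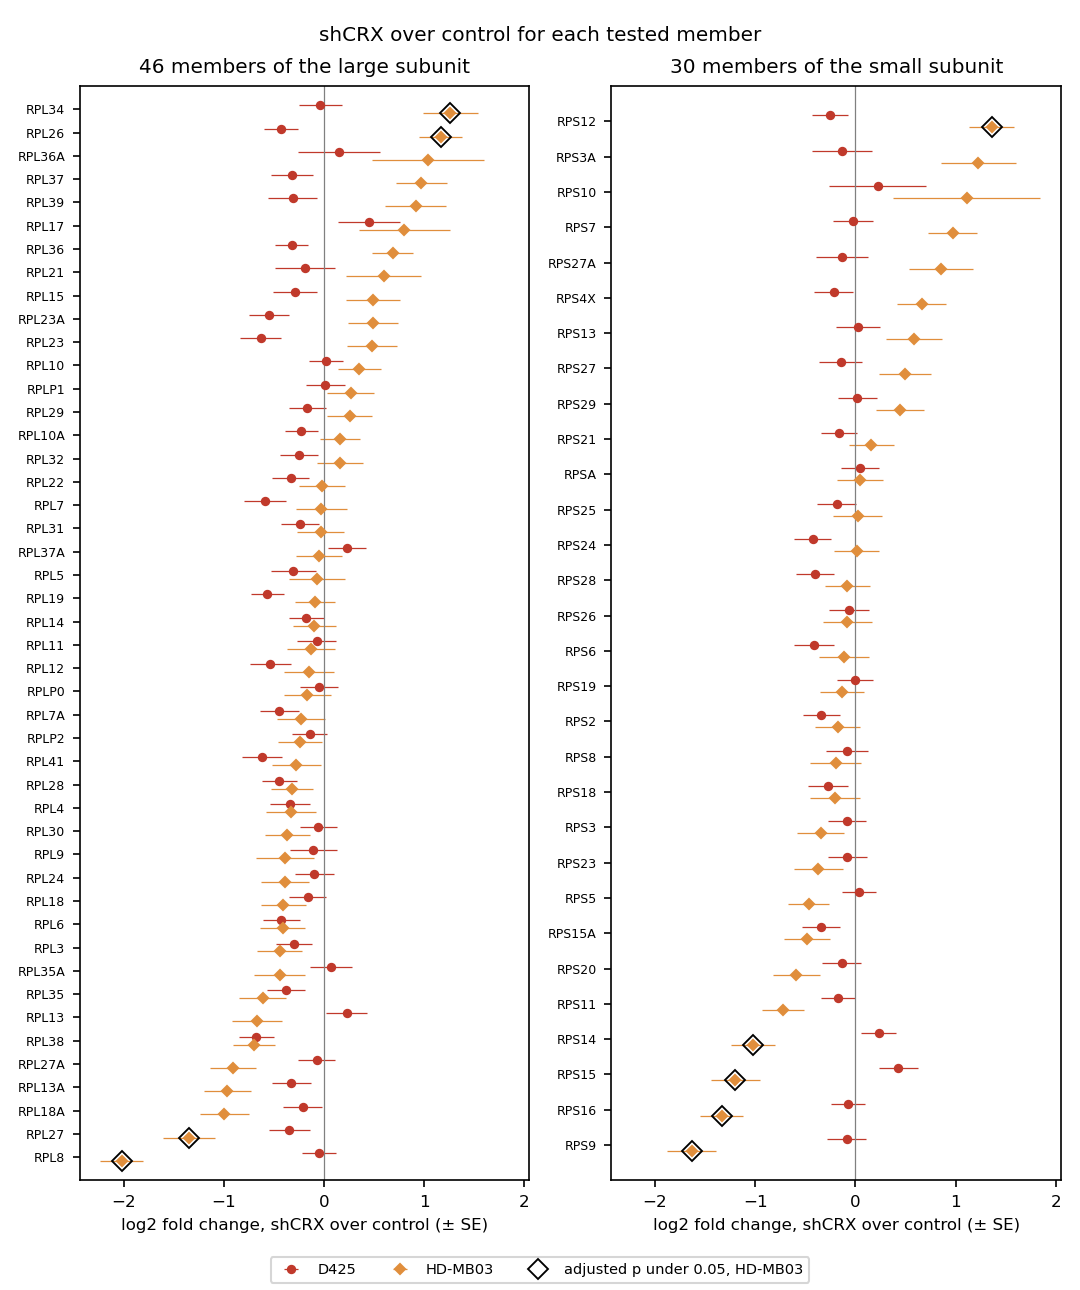
Log2 fold change, shCRX over control, with its standard error for each of the 76 tested members, by subunit and in order of the HD-MB03 value; circles are D425, diamonds HD-MB03, and framed diamonds are called in HD-MB03. The D425 values lie between -0.68 and 0.45, the HD-MB03 values between -2.02 and 1.36.

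In the mean of both lines, which balances the library numbers between the arms, RPL8 (-1.03 ± 0.14, SE, edgeR adjusted p = 0.0106) and RPS9 (-0.86 ± 0.15, adjusted p = 0.0459) were lower in the libraries labelled shCRX. These 2 of 76 members (2.63%) compare with 0.225% of all genes. Their D425 values were -0.05 and -0.09, so the mean rests on HD-MB03, where CRX goes against the label. Next below them stood RPL27 (-0.85, adjusted p = 0.059), RPS16 (-0.70, adjusted p = 0.0584) and RPL38 (-0.69, adjusted p = 0.0633), which lay below 0 in both lines and missed the threshold. The highest values were those of RPS10 (0.67), RPL17 (0.63), RPL34 (0.61) and RPL36A (0.59), among them the 3 poorly counted members. RPS9 was no longer called without D425 parental replicate 1, D425 vector, HD-MB03 parental, HD-MB03 vector or HD-MB03 shCRX replicate 1, which left 1 call each, neither gene was called without HD-MB03 shCRX replicate 2 (0 calls), and 5 members were called without D425 shCRX replicate 2. With the vector libraries alone, or the parental libraries alone, as control no member was called.

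The lines were compared as the mean of their arms, which again balances the library numbers. D425 and HD-MB03 differed in 35 of 76 members (46.1%), where 46.0% of all genes were called, so the family's share lay near that of all genes. Of the 35, 12 were higher in D425 (24.4% of all genes) and 23 lower (21.6%). Of the higher members, RPS3, at the mRNA entry channel, was from 2225 to 3216 CPM with a median of 3027 in D425, against 1271 and 1144 CPM in the HD-MB03 libraries labelled shCRX and 1598 and 1476 CPM in the HD-MB03 controls (1.08 ± 0.15, SE, edgeR adjusted p = 0.00012). RPS25, which several viral internal ribosome entry sites need, was from 784 to 1193 CPM with a median of 1084 in D425, against 613 and 517 CPM in the HD-MB03 libraries labelled shCRX and 479 and 635 CPM in the HD-MB03 controls (0.87 ± 0.16, adjusted p = 0.000752). In both genes every D425 library exceeded every HD-MB03 library. RPL10, the last protein to join the maturing large subunit, was from 1906 to 2420.2 CPM with a median of 2280.2 in D425, against 1525 and 1288 CPM in the HD-MB03 libraries labelled shCRX and 1127 and 1077 CPM in the HD-MB03 controls (0.84 ± 0.14, adjusted p = 0.00038). RPL23 (0.83, adjusted p = 0.00134) and the X-linked RPS4X (0.80, adjusted p = 0.00143) followed.

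Of the members lower in D425, RPS9 was from 468 to 707 CPM with a median of 609.7 in D425, against 895 and 838 CPM in the HD-MB03 libraries labelled shCRX and 2904 and 2481 CPM in the HD-MB03 controls (-1.35 ± 0.15, SE, edgeR adjusted p = 1.48e-05). RPS26, which lines the mRNA exit channel and is mutated in Diamond-Blackfan anaemia, was from 111 to 176 CPM with a median of 155 in D425, against 290.0 and 275 CPM in the HD-MB03 libraries labelled shCRX and 268 and 330.3 CPM in the HD-MB03 controls (-0.94 ± 0.16, adjusted p = 0.000372). RPS24, another Diamond-Blackfan gene, was from 1046 to 1693 CPM with a median of 1435 in D425, against 2579 and 2182 CPM in the HD-MB03 libraries labelled shCRX and 2225 and 2497 CPM in the HD-MB03 controls (-0.81 ± 0.14, adjusted p = 0.000561). The lines did not overlap for any of these 3 genes. RPS6 (-0.87, adjusted p = 0.000707) and RPL35 (-0.87, adjusted p = 0.000473), from chromosome 9, were also lower in D425. In all, 12 members did not overlap between the lines, against 29.1% of all genes. Of these 4 were higher in D425, against 15.3% of all genes, and 8 lower, against 13.8%. Without HD-MB03 shCRX replicate 1 the count of called members was 19.

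The lines were then compared within each set of library numbers, which share no library. Within a set the line and the arm cannot be told apart, so these are not differences of line alone. D425 shCRX against HD-MB03 controls, in the low set, gave 41 called members (53.9%, against 30.7% of all genes). D425 controls against the HD-MB03 libraries labelled shCRX, in the high set, gave 10 (13.2%, against 31.2% of all genes). In both sets, and in the same direction, 6 members were called, RPL10, RPL23, RPS3 and RPS25 higher and RPS24 and RPS26 lower in D425, which is 7.89% of the members, against 18.6% of all genes. RPS3 was 0.86 in the low and 1.29 in the high set, and RPS26 was -1.01 and -0.86. RPL8 (-0.88 and 1.18) and RPL27 (-0.73 and 0.96) were called in opposite directions, as 13 genes were among all 16006 tested. The gap between the sets is fixed by the shCRX contrast in the mean of the lines (-1.03 for RPL8 and -0.85 for RPL27). It is therefore not a further result. RPS9 was -2.21 in the low set (edgeR adjusted p = 1.15e-05) and -0.49 in the high set (adjusted p = 0.102).

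**Figure D5:**
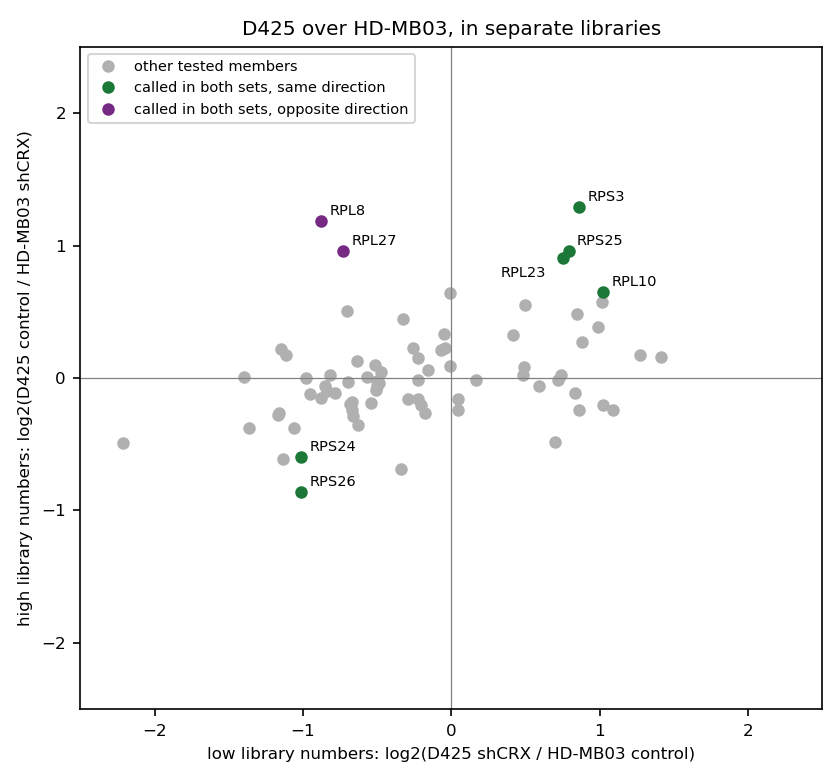
Log2 fold change of D425 over HD-MB03 for each of the 76 tested members in the low library numbers (horizontal axis) and the high library numbers (vertical axis), 2 comparisons with no library in common. Within each set the lines also differ in arm. Green points are called in both sets in the same direction (6 members) and purple points in opposite directions (RPL8 and RPL27).

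The line differences were also read by chromosome. The 4 tested members of the X chromosome were all higher in D425, with a median log2 difference of 0.74, against 0.70 for 556 genes of that chromosome. The 4 of chromosome 9 were all lower and all called, where 46.0% of all genes were called and 21.6% were called lower. Their median was -0.79, against -0.36 for 639 genes. On chromosome 11 the median was 0.57 for 5 members, against 0.35 for 831 genes, and on chromosome 17 it was 0.33 for 6 members, against 0.26 for 916 genes. Members of chromosome 19 (-0.27 for 12, against 0.12 for 1081 genes) and chromosome 12 (-0.56 for 4, against 0.00 for 823 genes) lay below the other genes of their chromosomes. In the high set alone these 2 medians were 0.07 and -0.12 (members of chromosomes 19 and 12). For chromosome 9 the high set gave -0.38 for the members and -0.38 for all genes, and none of the 4 members was called there. The copy number of these chromosomes was not measured here.

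Genes that work with the ribosomal proteins were read from lists chosen by function. FAU, which encodes a ribosomal protein fused to a ubiquitin-like protein, was not called for shCRX in either line. It had 190.0 and 222 CPM in the HD-MB03 libraries labelled shCRX, against 479 and 319.6 CPM in controls (-0.95, edgeR adjusted p = 0.0674). Of the 8 L-suffixed and related paralogs 7 were tested. RPL36AL alone was called for shCRX within a line, lower in D425 (2.97% of all genes were called) and in HD-MB03 (1.51%). It had 60.2, 70.6 and 68.4 CPM in D425 shCRX libraries, against 120.4, 108 and 108 CPM in controls (-0.76 ± 0.17, SE, adjusted p = 0.029). It had 84.5 and 99 CPM in the HD-MB03 libraries labelled shCRX, against 162 and 187 CPM in controls (-0.92 ± 0.20, adjusted p = 0.0451). RPL36AL encodes a protein nearly identical to that of RPL36A, and its arms were separated in both lines. In the mean of the lines 1 of the 7 paralogs was called, lower, where 0.225% of all genes were called. Between the lines 2 of the 7 were called, both lower in D425, where 46.0% of all genes were called and 21.6% were called lower.

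Translation factors and other genes known for the same kind of start formed a list of 20, of which 19 were tested. In D425 all 19 had values below 0, with a median of -0.40 against 0.02 over all genes, and 2 were called, EEF2 and EIF4B (2.97% of all genes were called). EEF2, which moves the ribosome along the mRNA, had 5575, 4661 and 5996 CPM in D425 shCRX libraries, against 8592, 8156 and 10079.7 CPM in controls (-0.72 ± 0.18, SE, edgeR adjusted p = 0.048). EIF4B, a helper of the initiation helicase, had 667, 482 and 798 CPM, against 1301, 1097 and 1288 CPM (-0.92 ± 0.22, adjusted p = 0.0459). In HD-MB03 the median of this list was 0.09 and 1 gene was called, where 1.51% of all genes were. It was EIF3G, a subunit of the initiation factor eIF3, with 138 and 163 CPM in the libraries labelled shCRX, against 311 and 265 CPM in controls (-0.94, edgeR adjusted p = 0.0451). The difference between the lines in the contrast of labels was called for none of the 19. Between the lines, EIF3E, EEF1D, EIF3H and EEF2 were higher and EIF4B was lower in D425, 5 of 19, against 46.0% of all genes.

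Of 10 regulators of these mRNAs and of ribosome synthesis, 9 were tested and none was called for shCRX in either line. MYC had 966, 1906 and 1978 CPM in D425 shCRX libraries, against 2725, 2970.0 and 2028 CPM in controls (-0.67 ± 0.27, SE, edgeR adjusted p = 0.209). It had 3508 and 4106 CPM in the HD-MB03 libraries labelled shCRX, against 5213 and 3937 CPM in controls (-0.27 ± 0.33, adjusted p = 0.715). Each D425 library lay below each HD-MB03 library (-1.03 ± 0.21 between the lines, adjusted p = 0.00138). EIF4EBP2, an inhibitor of the cap-binding protein, was also lower in D425 (-1.44, edgeR adjusted p = 2.39e-05). These were the 2 of 9 regulators called between the lines, where 46.0% of all genes were called and 21.6% were called lower. LARP1, MTOR, RPTOR and the S6 kinase genes on the list did not pass between the lines.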

How the data were processed

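The deposited files held read counts per gene, 1 file per library, unnormalised, as the authors' HTSeq step gave them. The submitters' processing notes name bcl2fastq, HISAT2, HTSeq, DESeq2 and the build GRCh37 (hg19); their versions, and whether counting used strand, are not given in the sources used here. Reads of overlapping genes and pseudogenes are therefore uncertain. Symbols, transcript length and GC content came from a GENCODE annotation of another build, matched by gene identifier, and starts from RefSeq. Promoter entries were at hand for 62 members.

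Counts were analysed with R 4.3.3 and edgeR 4.0.16 (TMM, filterByExpr on 4 groups of line and arm, robust quasi-likelihood fit, 6 residual degrees of freedom), and tested on simulated data. CPM used TMM-scaled library sizes. Shares were compared with exact permutation tests (SciPy 1.17.1). Alternatives were other scalings, filters, DESeq2 1.42.0, limma 3.58.1, left-out libraries, single kinds of control, thinning, GC and length correction and added pseudogene counts. A floor of 3 counts was 0.166 to 1.53 CPM. It covers counting error alone. The labels do not state separate cultures, so the spread behind each p-value may be technical.

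Named members were those called in a comparison, the 4 highest and 4 lowest of each, and a list by role. The members and lists were chosen with earlier results of these data known, and the ratio of subunits after its values were seen. Results on some genes are not reported here.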

Additional observations from a re-analysis of the deposited data

Results flagged for a closer look

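The contrast of labels, shCRX over control, differed between the lines, by edgeR's test of the difference itself (D425 minus HD-MB03, log2), for 8 ribosomal protein genes. It was -1.61 for RPS12, -1.59 for RPL26 and -1.29 for RPL37, whose fitted values were positive in HD-MB03 and negative in D425. It was 1.97 for RPL8, 1.62 for RPS15, 1.55 for RPS9, 1.26 for RPS16 and 1.25 for RPS14, which were lower in the HD-MB03 libraries labelled shCRX. The library numbers cannot be told apart from this difference, CRX goes against the label in HD-MB03, and the part of unaligned reads was not tested. With pseudogene counts added to the members all 8 calls remained. With GC content and length taken into account RPS15 (0.91, edgeR adjusted p = 0.0821), RPS9 (1.13, adjusted p = 0.0775) and RPL37 (-0.89, adjusted p = 0.114) were not called.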

How the results depend on the processing

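The median log2 difference of the members kept its negative sign in all 5 comparisons under every alternative run. Counts of called members were 2 (mean of the lines), 0 (D425), 9 (HD-MB03), 8 (difference) and 35 (between the lines). In that order, limited to counts that moved over 1.5-fold, DESeq2's Wald test gave 12, 4, 18 and 17, and no filter on low counts gave 8, 3, 16 and 16. The share of all genes called under each alternative, here and below, is not given. A larger count is therefore not a stronger result about the members. DESeq2 size factors gave 5 and library totals 1 for the mean, the GC and length correction 4 for the mean and 1 for D425, limma-voom 2 and added pseudogene counts 1 for D425. Vector controls alone gave 0, 0 and 0 for the mean, HD-MB03 and the difference, and parental controls alone 0, 5 and 5. Leaving out each library gave 0 to 5 for the mean, 0 to 0 for D425, 1 to 13 for HD-MB03, 2 to 15 for the difference and 19 to 39 between the lines, where a lone library of an arm is assumed to vary like the other groups. Within the high library numbers, where D425 controls met HD-MB03 libraries labelled shCRX, 10 members were called. There RPL6 (0.0259), RPS16 (0.0081), RPL13A (0.17), RPL26 (-0.0173) and RPL38 (0.22) changed sign, and RPL17 did so (-1.15) with pseudogene counts added. The share of reads (D425 minus HD-MB03, -0.277 points) became 0.831 with all reads as denominator and 0.562 within the high library numbers, and without single libraries it ran from -0.604 to 0.0880. The cause of these moves was not tested.

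D425 parental and shCRX libraries share replicate numbers 1 and 2, with no stated link, and the correlation of their deviations over genes was 0.0137. With the replicate number as a block in those 4 libraries, 0 members were called. The libraries held 1.96 to 18.06 M counted reads. Thinned to equal depth, 3, 0, 12, 7 and 36 members were called.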

Other observations

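The ribosome of mitochondria, built from MRPL and MRPS proteins, was read beside the cytosolic one. Of 74 tested genes 1 was called in D425 (2.97% of all genes), MRPL10, with 118, 80.1 and 102 CPM in shCRX libraries, against 170.4, 169.8 and 167 CPM in controls (-0.76, edgeR adjusted p = 0.0383). In HD-MB03 3 were called (1.51% of all genes), MRPL9, MRPL41 and MRPL12, all lower in the libraries labelled shCRX. MRPL12 had 2.21 and 5.51 CPM there, against 32.2 and 26.2 CPM in controls (-2.92, adjusted p = 0.0181), and MRPL41 had 12.6 and 19.1 CPM, against 77.4 and 45 CPM (-1.95, adjusted p = 0.0255). In D425 MRPL41 lay the other way, with 29.5, 61.5 and 41.9 CPM in shCRX libraries, against 19.6, 22.6 and 17 CPM in controls (1.16, adjusted p = 0.0552), and the difference between the lines was called for 5 genes of this list (4.16% of all genes), all positive (MRPS34, MRPL34, MRPL9, MRPL41 and MRPL12). Between the lines 25 of the 74 were called, against 46.0% of all genes, with 13 higher (24.4% of all genes) and 12 lower (21.6%) in D425.

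Among 10 host genes of small nucleolar RNAs, whose transcripts also start with a pyrimidine tract, none was called for shCRX in D425 (2.97% of all genes). In HD-MB03 SNHG16 was called, 1 of 10, against 1.51% of all genes. It had 137 and 107 CPM in the HD-MB03 libraries labelled shCRX, against 489.5 and 285 CPM in controls (-1.66, edgeR adjusted p = 0.0175). In D425 it had 46.5, 57.2 and 73.8 CPM in shCRX libraries, against 109, 90.6 and 98 CPM in controls (-0.75, adjusted p = 0.11), and the arms did not overlap in either line. Between the lines 4 of the 10 were called, against 46.0% of all genes, all lower in D425 (21.6% of all genes).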
